A study of Homo sapiens with 6 samples.

Results

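The genes that encode voltage-gated sodium channels, voltage-gated calcium channels and HCN channels were followed across untreated, alcohol-treated and losartan co-treated human cardiomyocytes. Members were picked out by their gene symbols, with no measured value in the rule: the SCN genes, the CACNA1, CACNA2D, CACNB and CACNG genes and the HCN genes. This gave 41 of the 21134 genes in the expression table. RNA sequencing had been done on 6 libraries, 2 per group. Control hiPSC-CMs were untreated, alcohol hiPSC-CMs received 100 mM alcohol for 24 h, and co-treated hiPSC-CMs were kept for 24 h in 100 mM alcohol to which 1 μM losartan was added. Losartan blocks the type 1 receptor of angiotensin II. No group received losartan without alcohol. The labels call the cells cardiomyocytes derived from human induced pluripotent stem cells and give the line as H9, a name that belongs to an embryonic stem cell line. All groups come from this 1 line, and neither the labels nor the study's methods say whether the 2 replicates of a group were separate differentiations, so the p-values measure only the spread between these libraries.

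The heartbeat of a cardiomyocyte is built from the currents of these channels. A sodium channel carries the fast upstroke of the action potential and consists of a pore-forming alpha subunit with beta subunits beside it. High-voltage calcium channels, of which the L-type channel is the main one in working myocardium, carry the calcium that starts contraction; their pore subunit is joined by a beta subunit and an alpha2delta subunit, which bring the channel to the membrane and tune its gating. T-type calcium channels open at more negative voltages and, with the HCN channels of the pacemaker current, are known for the spontaneous beating of nodal and immature cardiomyocytes.

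The libraries held 4898287 to 5051448 expected counts each, and the channel genes took 0.119% to 0.148% of them. The highest of these shares was in alcohol replicate 2 and the lowest in co-treated replicate 2. Levels are given as FPKM (fragments per kilobase of transcript, scaled to the reads of the library), which are scaled per length and so can be compared between genes. The 12 cardiomyocyte markers checked were all present, with TNNT2 at 3194 to 3728 FPKM in every library, and of 10 neuron markers ELAVL3, ELAVL4 and SYP had at most 3 counts in every library while others were detected, SNAP25 at 3.45 to 6.42 FPKM, NEFL at 2.14 to 3.38 FPKM and SYT1 at 1.73 to 3.70 FPKM. Alcohol replicate 2 and control replicate 2 stood apart from the other libraries in MYL2 and MYH6. They did not go together in the myosin gene MYL7, which was highest in control replicate 2 and lowest in alcohol replicate 2. MYL2, the regulatory light chain of ventricular myosin, was at 863 FPKM in control replicate 2 and 821 FPKM in alcohol replicate 2, against 2139 to 2862 FPKM in the other 4 libraries. MYH6, the alpha myosin heavy chain, was at 717 and 737 FPKM in those same libraries and at 305 to 381 FPKM in the others. The 12 markers summed to 26406 and 27036 FPKM in the controls, 19840 and 26348 FPKM after alcohol, where replicate 2 was the lower, and 22668 and 24755 FPKM after co-treatment. MYL7 was the largest part of these sums. It was at 14512 and 16180 FPKM in control, 12612 and 9321 FPKM in alcohol, and 10240 and 11847 FPKM in co-treated libraries. The median log2 fold change of the 12 markers between alcohol and control was 0.024. These are bulk libraries, in which a lower level per cell and a smaller share of cells with the transcript cannot be told apart.

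In most of the families a single member led the others, and the L-type pore genes show how far apart relatives were. CACNA1C, the L-type pore of ventricle and atrium, averaged 18.8 FPKM over the 6 libraries. CACNA1D, the L-type pore known from the sinoatrial node, averaged 4.32 FPKM, CACNA1F, known from the retina, 0.302 FPKM, and CACNA1S, the skeletal muscle pore, 0.178 FPKM. The promoters of 3 of them are shown here because they span the range of levels in this subfamily. Each line gives the 250 bases before the transcription start, 5′ to 3′ on the strand of the gene, from RefSeq (GRCh38.p14), with every CpG in capitals. The positions are chr12:2052737-2052986 on the plus strand for CACNA1C, chr3:53494361-53494610 on the plus strand for CACNA1D and chr1:201112427-201112676 on the minus strand for CACNA1S. The CACNA1C start used here lies inside the annotated span of the gene, which begins further upstream.
CACNA1C: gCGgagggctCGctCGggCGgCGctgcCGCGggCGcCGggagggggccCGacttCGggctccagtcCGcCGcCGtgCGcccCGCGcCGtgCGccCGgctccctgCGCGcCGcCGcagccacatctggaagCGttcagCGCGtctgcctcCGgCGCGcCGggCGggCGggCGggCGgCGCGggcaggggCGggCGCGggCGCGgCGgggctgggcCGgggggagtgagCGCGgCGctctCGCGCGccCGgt
CACNA1D: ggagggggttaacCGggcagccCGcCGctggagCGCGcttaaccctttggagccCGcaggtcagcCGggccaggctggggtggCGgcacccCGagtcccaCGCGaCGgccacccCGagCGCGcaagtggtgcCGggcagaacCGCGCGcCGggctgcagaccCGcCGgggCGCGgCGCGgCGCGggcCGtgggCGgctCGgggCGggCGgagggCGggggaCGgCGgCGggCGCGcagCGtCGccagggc
CACNA1S: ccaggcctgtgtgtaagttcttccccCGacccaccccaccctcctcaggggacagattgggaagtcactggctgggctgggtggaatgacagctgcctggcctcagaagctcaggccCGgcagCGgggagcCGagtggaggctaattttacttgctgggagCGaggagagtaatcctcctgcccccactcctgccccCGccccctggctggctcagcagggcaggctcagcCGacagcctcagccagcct
These stretches held 51 CpG in CACNA1C, 41 in CACNA1D and 7 in CACNA1S. With the 50 bases after the start included, the window of 300 bases held 54, 56 and 8 CpG, and that of CACNA1F held 9.

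A promoter window of 300 bases was in the RefSeq table for 29 of the 41 channel genes, and for genes with several windows the one richest in CpG was taken. Of the 19 channel genes with a mean of at least 1 FPKM, 13 had a window. CACNA1G, CACNA1H, CACNG8 and SCN3B were among those without one. These 13 had a median of 29 CpG, and the 16 matched genes under 1 FPKM had a median of 14.5. All 27305 genes in the table had a median of 16. The pattern had exceptions in both directions. SCN2B held 1 CpG at a mean of 1.78 FPKM, while SCN8A held 52 at 0.823 FPKM and HCN2 held 49 at 0.335 FPKM. HCN4, the highest of all channel genes, held 19. CpG was counted after the levels had been seen, and the counts are a description of these windows.

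**Figure D1:**
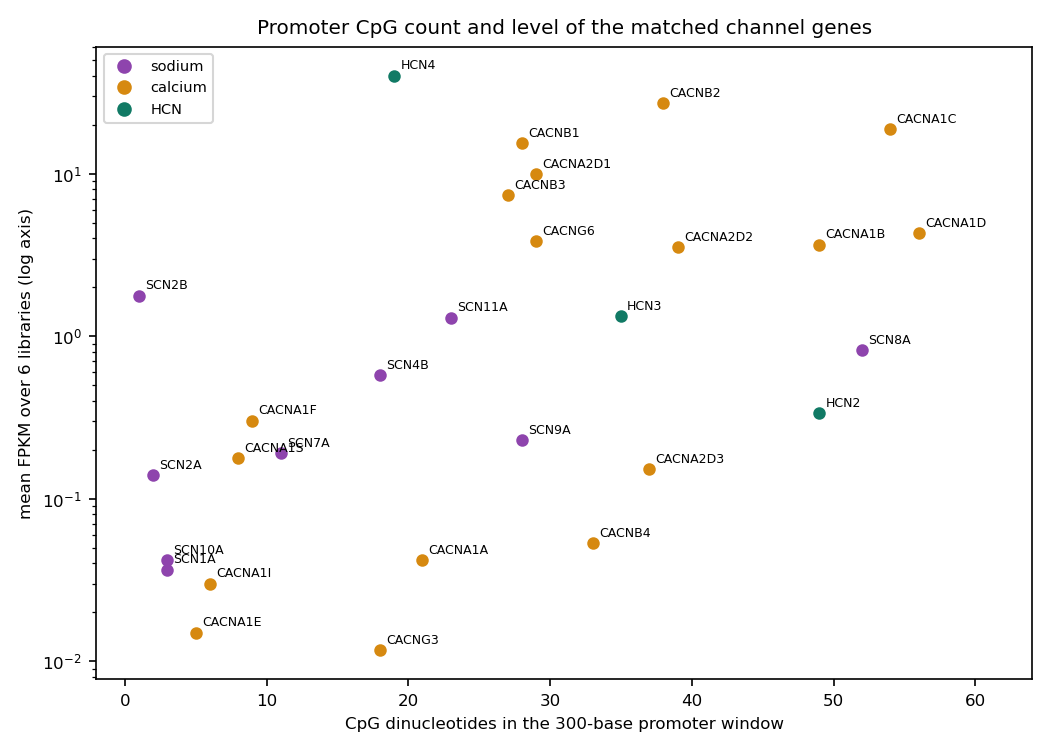
Mean FPKM over the 6 libraries (log axis) against the number of CpG in the 300-base promoter window for the 29 matched channel genes, 1 point per gene, coloured by channel family. CACNA1C and CACNA1D lie at the upper right with 54 and 56 CpG, CACNA1F and CACNA1S at the lower left with 9 and 8, and SCN2B stands alone at 1 CpG and 1.78 FPKM.

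Of the 41 channel genes, 31 were above 0 in all 6 libraries and 19 had a mean of at least 1 FPKM. At the other end 3 genes, CACNG1, CACNG3 and SCN1A, had no more than 3 counts in any library. Of the sodium channel alpha genes, SCN11A (chr3:38845764-39051944), a channel known from pain-sensing neurons, was at 1.59 and 1.16 FPKM in control, 1.06 and 0.96 FPKM in alcohol, and 1.63 and 1.41 FPKM in co-treated libraries. The alcohol libraries were the lowest. SCN10A, also known from sensory neurons, was listed at 0 in 3 libraries and at no more than 0.11 FPKM in the others. SCN8A, a channel known from the brain, ranged from 0.70 to 1.04 FPKM, and SCN1A, SCN2A, SCN3A, SCN4A, SCN7A and SCN9A ranged from 0 to 0.60 FPKM.

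The sodium channel beta genes, whose products are single-pass proteins that modify gating and cell adhesion, SCN2B, SCN3B and SCN4B were low. SCN2B was at 0.93 and 1.59 FPKM in control, 1.95 and 1.91 FPKM in alcohol, and 2.24 and 2.04 FPKM in co-treated libraries, so that both treated groups lay above both controls. SCN3B was at 1.71 and 1.27 FPKM in control, 2.38 and 1.57 FPKM in alcohol, and 1.27 and 2.15 FPKM in co-treated libraries, with overlap throughout. On average they held 38.3% and 36.7% of the summed FPKM of the beta genes. SCN4B ranged from 0.35 to 0.83 FPKM.

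CACNA1C (chr12:1970780-2697950) was at 17.89 and 16.67 FPKM in control, 20.14 and 19.95 FPKM in alcohol, and 20.15 and 17.70 FPKM in co-treated libraries. Both alcohol libraries lay above both controls, and the co-treated libraries spanned the gap. It held 68.8% of the summed FPKM of the 7 high-voltage pore genes. CACNA1D was at 2.74 and 4.40 FPKM in control, 3.50 and 6.50 FPKM in alcohol, and 4.16 and 4.59 FPKM in co-treated libraries, with alcohol replicate 2 the highest. CACNA1B (chr9:137877782-138124619), the N-type pore known from presynaptic terminals, was at 4.79 and 4.75 FPKM in control, 3.64 and 3.00 FPKM in alcohol, and 3.66 and 2.13 FPKM in co-treated libraries. Every treated library lay below both controls, and the treated groups overlapped. CACNA1F was at 0.13 FPKM in both control libraries on 4 counts each, and at 0.28 to 0.50 FPKM on 8 to 15 counts in the 4 treated libraries. The other high-voltage pores, CACNA1A, CACNA1E and CACNA1S, had between 0 and 12 counts per library.

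The T-type pores were led by CACNA1G, with 80.7% of their summed FPKM on average. It was at 6.06 and 9.36 FPKM in control, 8.41 and 13.78 FPKM in alcohol, and 8.53 and 8.33 FPKM in co-treated libraries. Alcohol replicate 2 was the highest, and alcohol replicate 1 lay between the controls. CACNA1H, the other T-type pore above 1 FPKM, was at 2.37 and 2.09 FPKM in control, 2.38 and 2.08 FPKM in alcohol, and 2.02 and 1.32 FPKM in co-treated libraries. CACNA1I, known from the brain, had at most 6 counts.

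The auxiliary calcium channel genes were present with a leading member by FPKM in each class. CACNB2, the main cardiac beta subunit, was at 23.46 and 24.09 FPKM in control, 23.64 and 33.91 FPKM in alcohol, and 28.23 and 28.95 FPKM in co-treated libraries. CACNB1, the beta subunit of skeletal muscle channels, was at 17.98 and 16.07 FPKM in control, 13.67 and 14.40 FPKM in alcohol, and 15.72 and 14.36 FPKM in co-treated libraries, with the treated libraries all below the controls. CACNB3 was at 7.36 and 8.57 FPKM in control, 8.24 and 6.49 FPKM in alcohol, and 7.11 and 6.58 FPKM in co-treated libraries. These genes held on average 54.0%, 30.9% and 14.9% of the summed FPKM of the beta subunits. CACNA2D1, the cardiac and skeletal muscle alpha2delta subunit and a target of gabapentin, was at 10.87 and 9.32 FPKM in control, 10.51 and 9.58 FPKM in alcohol, and 9.50 and 9.99 FPKM in co-treated libraries, with little spread. CACNA2D2 was at 2.14 and 3.20 FPKM in control, 3.23 and 6.11 FPKM in alcohol, and 2.68 and 3.83 FPKM in co-treated libraries. Among the gamma genes, CACNG6 was at 2.50 and 4.12 FPKM in control, 3.02 and 6.08 FPKM in alcohol, and 4.42 and 2.87 FPKM in co-treated libraries. CACNG8, known chiefly as an auxiliary subunit of AMPA receptors, was at 1.76 and 1.33 FPKM in control, 0.95 and 1.70 FPKM in alcohol, and 2.11 and 1.22 FPKM in co-treated libraries. The 6 other auxiliary genes, CACNA2D3, CACNA2D4, CACNB4, CACNG1, CACNG3 and CACNG4, reached no more than 0.30 FPKM.

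HCN4 (chr15:73319859-73368958), the main HCN channel of the sinoatrial node, was the most abundant of all 41 genes by mean FPKM. It was at 40.20 and 47.86 FPKM in control, 39.74 and 45.06 FPKM in alcohol, and 36.72 and 30.35 FPKM in co-treated libraries. Control and alcohol overlapped, and both co-treated libraries lay below the other 4. HCN3 was at 1.44 and 1.57 FPKM in control, 1.06 and 1.41 FPKM in alcohol, and 1.49 and 0.99 FPKM in co-treated libraries. HCN2, known from ventricle and brain, ranged from 0.17 to 0.57 FPKM. HCN4 held 93.6% ± 0.14 of the summed FPKM of the 4 HCN genes in the controls, 92.5% ± 0.17 after alcohol and 91.5% ± 0.18 after co-treatment (mean ± SD, n = 2). These shares did not overlap between any of the groups, although with 2 libraries against 2 an exact two-sided permutation test cannot give a p below 0.333.

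**Figure D2:**
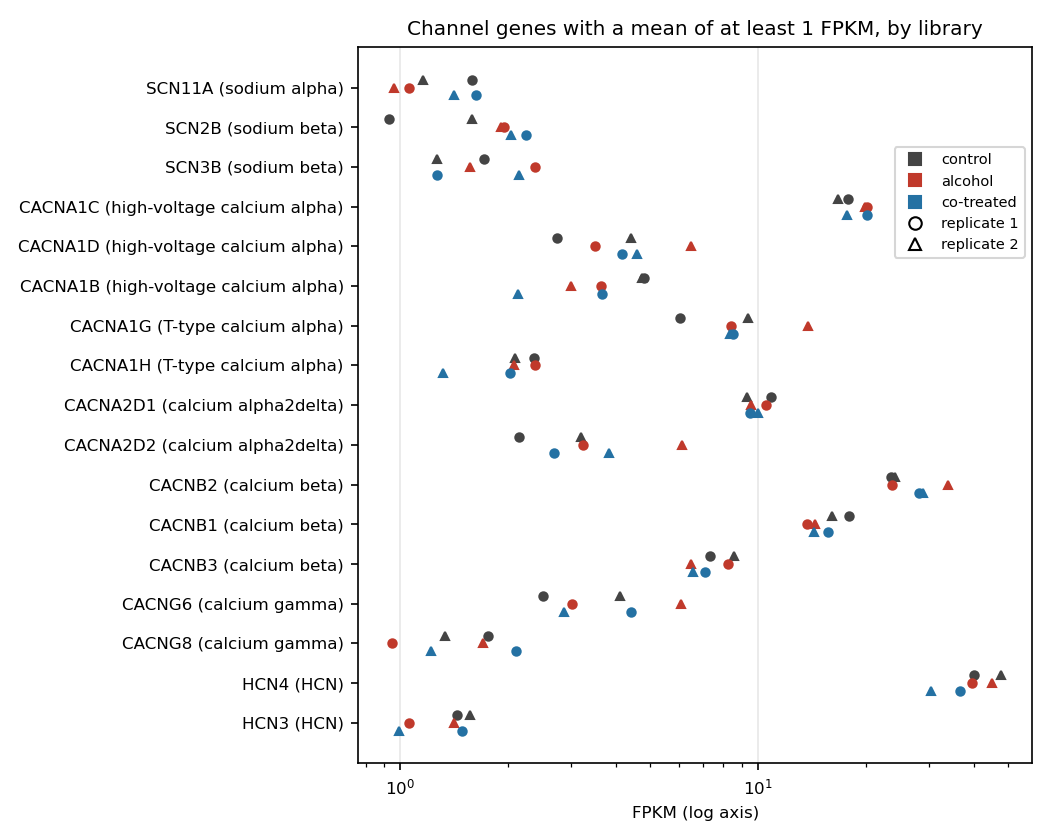
FPKM (log axis) of 17 channel genes with a mean of at least 1 FPKM, with the role of each gene in brackets. Each point is 1 library; colour gives the group and shape the replicate. Of the genes drawn, HCN4, CACNB2, CACNA1C and CACNB1 have the highest means, with points from 13.67 to 47.86 FPKM. CACNA1G reaches 13.78 FPKM in alcohol replicate 2, and the points of most genes mix between the groups.

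The first comparison asked what alcohol changed against untreated cells. After a filter on low counts, 24 of the 41 channel genes were tested in a fit of all 6 libraries with edgeR's quasi-likelihood test, and p-values were adjusted by the Benjamini-Hochberg method over all 14926 genes tested. No channel gene passed an adjusted p of 0.05, a threshold that 0.067% of all genes tested passed. DESeq2 and limma also called 0 channel genes. However, DESeq2 gave no adjusted p for CACNA2D2, CACNA1B, CACNB1 and CACNA1F in this comparison, so it could not have called them. At an unadjusted p under 0.05 edgeR gave 6 of the 24, or 25.0%, against 11.0% of all genes tested. DESeq2 tested 41 channel genes and limma on log2(FPKM + 1) tested 30, and both gave fewer than edgeR. Their shares over all genes were not counted, so they cannot be set beside the 11.0%. Of the 6 from edgeR, the 4 with higher values in alcohol included CACNA1F, CACNA1G and CACNA2D2 (5.27% of all genes tested were on that side). The 2 with lower values were CACNA1B and CACNB1 (5.78%). The count of 6 depended on which libraries entered the fit. The share of all genes at this threshold was not counted in the fits without 1 library. The median log2 fold change of the 24 was 0.17, against -0.0033 over all genes tested. In CPM, counts scaled to the total of a library times its TMM normalization factor, the alcohol libraries did not overlap the controls in 5 channel genes that were higher, or 20.8%, against 22.0% of all genes tested, and in 4 that were lower, or 16.7%, against 21.8%.

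Among the calcium channel genes, CACNA2D2 had a log2 fold change of 0.76 ± 0.29 (SE) between alcohol and control, with an edgeR adjusted p of 0.342. CACNA1G had a log2 fold change of 0.49 ± 0.21 with an edgeR adjusted p of 0.406, and CACNB1 one of -0.39 ± 0.15 with an edgeR adjusted p of 0.371. CACNA1B had a log2 fold change of -0.55 ± 0.21, with an edgeR adjusted p of 0.347 that ranged from 0.186 to 0.936 over the alternatives. CACNA1F, on the few counts given above, had one of 1.48 ± 0.65 with an edgeR adjusted p of 0.422. CACNA1C and HCN4 had small values in this comparison: 0.17 ± 0.12 on the log2 scale for CACNA1C (edgeR adjusted p = 0.661) and -0.09 ± 0.13 for HCN4 (edgeR adjusted p = 0.852).

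**Figure D3:**
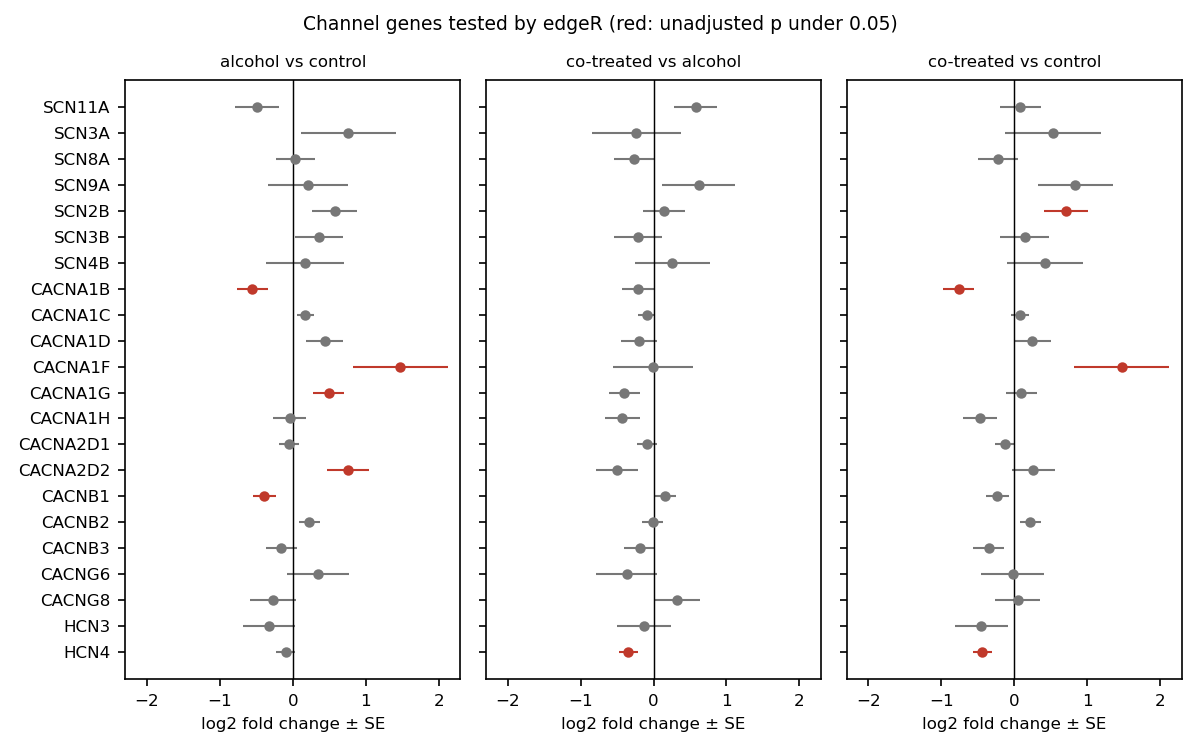
Log2 fold change with its standard error for 22 of the channel genes tested, in 3 panels for alcohol against control, co-treated against alcohol, and co-treated against control. Points in red have an unadjusted edgeR p under 0.05 (5, 1 and 4 of the genes drawn) and no point passed after adjustment.

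Several of the calcium channel genes that were high in alcohol were also split by replicate. CACNA1G, CACNA1D, CACNA2D2 and CACNG6 were higher in replicate 2 than in replicate 1 in both the control and the alcohol group. For CACNA1D the ratio of replicate 2 to replicate 1 was 1.61 in control and 1.86 in alcohol, and for CACNG6 it was 1.65 and 2.01. The ratio was 1.54 and 1.64 for CACNA1G, and 1.5 and 1.89 for CACNA2D2. In the same libraries MYH6 had ratios of 2.05 and 1.93 and MYL2 ratios of 0.403 and 0.314. In the co-treated group the ratio was 0.977 for CACNA1G, 1.10 for CACNA1D, 1.43 for CACNA2D2 and 0.649 for CACNG6, and 1.23 for MYH6 and 1.15 for MYL2. The part of this split between libraries in the differences between alcohol and control was not tested. The log2 fold change of CACNA1G was 0.14 without alcohol replicate 2, 0.79 without alcohol replicate 1, 0.23 without control replicate 1 and 0.85 without control replicate 2. That of CACNA2D2 was 0.29, 1.13, 0.51 and 1.10 under the same omissions.

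**Figure D4:**
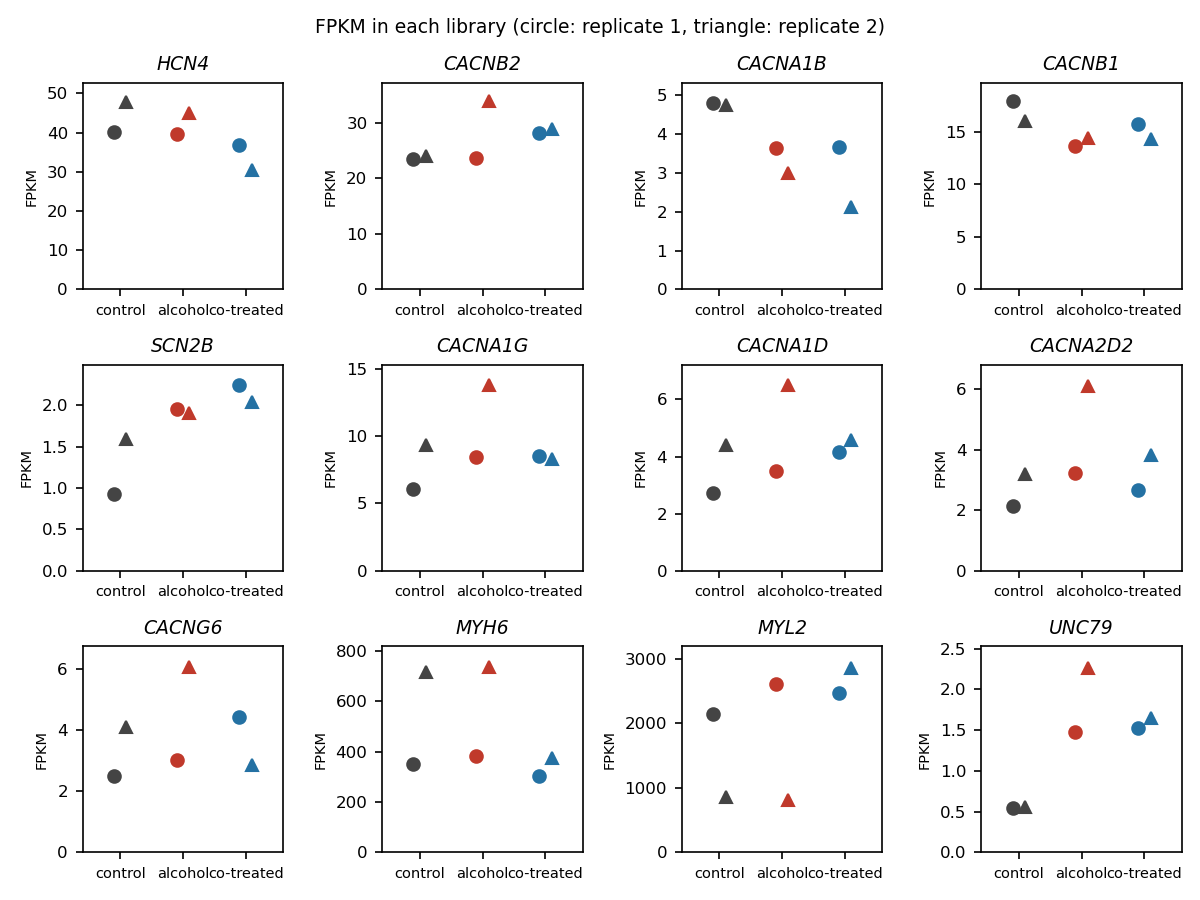
FPKM of 12 genes in each library on axes that start at 0, with circles for replicate 1 and triangles for replicate 2. In CACNA1G, CACNA1D, CACNA2D2, CACNG6 and MYH6 the triangles of control and alcohol lie above the circles, in MYL2 they lie below, HCN4 is lowest in the co-treated libraries, and UNC79 is lowest in the controls.

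The second comparison asked what losartan changed in cells given alcohol. No channel gene passed the adjusted threshold in edgeR, DESeq2 or limma, and 0.0134% of all genes tested passed it in edgeR. At an unadjusted p under 0.05, 1 of the 24 remained in edgeR, or 4.17%, against 5.55% of all genes tested. DESeq2 tested 41 channel genes and limma on log2(FPKM + 1) tested 30, and neither gave more than edgeR. Their shares over all genes were not counted. In edgeR no channel gene was on the higher side, against 2.84% of all genes tested, and 1 was on the lower side, against 2.71%. This gene was HCN4, with a log2 fold change of -0.35 ± 0.13 and an edgeR adjusted p of 0.857. Its log2 fold change ranged from -0.47 to -0.23 when 1 library was left out. CACNA1C had a log2 fold change of -0.09 ± 0.12 (edgeR adjusted p = 0.960). Of the 24 genes 18 had a lower value in co-treated than in alcohol libraries, with a median log2 fold change of -0.16 against 0.0023 over all genes tested. That median was -0.03 when either alcohol library was left out. In CPM 4 channel genes were higher without overlap, or 16.7%, against 17.4% of all genes tested, and 3 were lower without overlap, or 12.5%, against 16.2%. Of these 3, CACNA1G did overlap in FPKM, which is not scaled by TMM.

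The third comparison set co-treated against untreated cells and shares its libraries with the other 2. Again no channel gene passed the adjusted threshold in edgeR, DESeq2 or limma, against 0.362% of all genes tested in edgeR. At an unadjusted p under 0.05 edgeR gave 4 of the 24, or 16.7%, against 12.6% of all genes tested. DESeq2 tested 41 channel genes and limma on log2(FPKM + 1) tested 30, and both gave fewer than edgeR. Their shares over all genes were not counted. In edgeR CACNA1F and SCN2B were on the higher side, with 6.26% of all genes tested, and CACNA1B and HCN4 on the lower side, with 6.37%. CACNA1B had a log2 fold change of -0.76 ± 0.21 with an edgeR adjusted p of 0.145, which ranged from 0.0546 to 0.557 over the alternatives. HCN4 had a log2 fold change of -0.44 ± 0.13 with an edgeR adjusted p of 0.172. SCN2B had a log2 fold change of 0.71 ± 0.30 with an edgeR adjusted p of 0.345, and the fold change was 0.38 without control replicate 1 and 1.15 without control replicate 2. CACNA1F had a log2 fold change of 1.47 ± 0.65 with an edgeR adjusted p of 0.373, and the fold change was 0.96 when co-treated replicate 2 was left out. CACNA1C was at 0.08 ± 0.12 on the log2 scale (edgeR adjusted p = 0.842). The median of the 24 was 0.08, against -0.0017 over all genes tested. In CPM 6 channel genes were higher without overlap, or 25.0%, against 21.6% of all genes tested, and 7 were lower without overlap, or 29.2%, against 21.7%. The log2 fold change of CACNA1B was -0.43 when co-treated replicate 2 was left out and -1.19 when co-treated replicate 1 was, and that of HCN4 ranged from -0.57 to -0.32 when 1 library was left out.

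Markers of other cells were followed because genes such as CACNA1B and SCN11A are also known from neurons. The summed level of 10 neuron markers was 9.70 to 11.5 FPKM in the controls, 12.9 to 14.4 FPKM after alcohol and 14.8 to 16.1 FPKM after co-treatment, and 0 of them passed the adjusted threshold in edgeR in any comparison. The sums did not overlap between the groups and were lowest in control, where CACNA1B was highest. Not all of these markers followed the sums. SNAP25 averaged 3.46, 5.56 and 5.47 FPKM in control, alcohol and co-treated libraries, whereas NEFL averaged 2.76, 2.72 and 2.84 FPKM. The summed level of 6 smooth muscle markers, cells that also use CACNA1C, was 1206 to 1517 FPKM in control, 614 to 1210 FPKM in alcohol, where alcohol replicate 2 was the lower, and 837 to 904 FPKM in co-treated libraries. TAGLN was the largest part of this sum and averaged 912, 514 and 481 FPKM in the 3 groups in that order. MYOCD, of the same list, averaged 60.2, 61.4 and 58.4 FPKM. The part of these markers in the channel values was not tested.

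The genes that work with the channels were read from a list of 45 partners and regulators, of which 44 were in the expression table and 37 were tested. None passed the adjusted threshold in edgeR in any comparison. At an unadjusted p under 0.05 there were 4 higher and 2 lower between alcohol and control, 3 higher and 2 lower between co-treated and alcohol, and 5 higher and 2 lower between co-treated and control. Of all genes tested, 5.27% were higher and 5.78% lower in the first comparison, 2.84% and 2.71% in the second, and 6.26% and 6.37% in the third. The lowest adjusted p was that of UNC79, which encodes a large partner of NALCN, the sodium leak channel. UNC79 was at 0.55 and 0.56 FPKM in control, 1.48 and 2.26 FPKM in alcohol, and 1.53 and 1.65 FPKM in co-treated libraries. All 4 treated libraries lay well above both controls. Its log2 fold change was 1.70 ± 0.28 between alcohol and control, with an edgeR adjusted p of 0.0531, and 1.46 ± 0.29 between co-treated and control, with an edgeR adjusted p of 0.0502. Of the alternatives that gave an adjusted p, UNC79 passed the threshold in 3 of 14 for alcohol and in 5 of 15 for co-treatment, with ranges from 0.00507 to 0.528 and from 0.0182 to 0.419. The adjusted p for alcohol was 0.00507 when alcohol replicate 1 was left out and 0.278 when alcohol replicate 2 was left out. That for co-treatment was 0.133 and 0.172 when control replicate 1 or 2 was left out, and 0.157 and 0.349 when co-treated replicate 1 or 2 was left out, so it passed in none of the fits that dropped a compared library. It was 0.0182 and 0.0231 in the fits that dropped alcohol replicate 1 or 2, and 0.0273 with a replicate block. UNC80, another partner of NALCN, was at 0.06 and 0.13 FPKM in control, 0.22 and 0.24 FPKM in alcohol, and 0.43 and 0.33 FPKM in co-treated libraries, with an edgeR adjusted p of 0.422 for alcohol and 0.117 for co-treatment. The pore gene NALCN itself had at most 2 counts in any library.

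Other partners had smaller values. FGF13, an intracellular FGF-like protein that binds the tail of sodium channels, was at 42.23 and 51.25 FPKM in control, 55.64 and 59.14 FPKM in alcohol, and 64.96 and 67.65 FPKM in co-treated libraries. Its groups did not overlap, and the log2 fold change between co-treated and control was 0.42 ± 0.12 with an edgeR adjusted p of 0.142. FGF11, of the same family, had a log2 fold change of 0.56 ± 0.19 between co-treated and alcohol with an edgeR adjusted p of 0.836. FLNA, a filamin that binds HCN channels, was at 44.5 FPKM in co-treated replicate 2 and at 60.67 to 70.50 FPKM in the other libraries. Of the transcription factors of the pacemaker and conduction system, TBX18 was at 9.14 and 6.87 FPKM in control, 9.98 and 9.92 FPKM in alcohol, and 12.30 and 15.00 FPKM in co-treated libraries. Its log2 fold change between co-treated and control was 0.72 ± 0.16 with an edgeR adjusted p of 0.0787. TBX3, a repressor of the working myocardial program, had one of -0.56 ± 0.22 with an edgeR adjusted p of 0.316, and ISL1, at 0.15 to 1.05 FPKM, one of 1.75 ± 0.63 with an edgeR adjusted p of 0.265. NKX2-5 was at 98.79 FPKM in co-treated replicate 2 and at 137.44 to 151.45 FPKM in the other libraries, with an edgeR adjusted p of 0.343 between co-treated and control.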

How the data were processed

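Bulk RNA sequencing of 6 libraries was grouped by the treatment in the labels. For each library the authors deposited expected counts, FPKM and a transcript length per gene. The submitters' processing notes name HISAT2 2.0.4, Bowtie2 2.2.5, RSEM 1.2.12 and hg38, without their roles. The expected counts, of which 33.9% above 0 are not whole (tolerance 0.001), were rounded and tested with edgeR 4.0.16 in R 4.3.3 (TMM, filterByExpr, quasi-likelihood F test, 1 fit of the 3 groups, Benjamini-Hochberg adjustment); standard errors were obtained from the log2 fold change and F (their ratio after taking the root of F). DESeq2 1.42.0, limma 3.58.1 on the deposited FPKM, other filters, a replicate term and the omission of each library were alternatives. Scripts were tested on simulated data. A floor of 3 counts is 0.594 to 0.612 CPM, for counting error only.

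Genes were named with all values at a mean of at least 1 FPKM or an unadjusted p under 0.05, and CACNA1C and HCN4 always; some genes that meet this rule are not reported here. The channel genes and lists were chosen with earlier results of these data known. Of 44 RefSeq symbols of this form, CACNG2, CACNG5 and CACNG7 are not in the table used here. Gene positions are from RefSeq (GRCh38.p14). Among the 24 channel genes tested, 13 have exons that overlap another GENCODE gene, nearly all on the opposite strand, and for 5 that gene is in the table (CACNA1C, CACNA1D, CACNA1H, CACNA2D2 and HCN3). The strand setting of the counting is not given in the sources used here, so such reads cannot be told apart.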

Additional observations from a re-analysis of the deposited data

How the results depend on the processing

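No channel gene was called at an adjusted p of 0.05 in any comparison under any of the 15 alternatives tried for each. DESeq2 gave no adjusted p for CACNA2D2, CACNA1B, CACNB1 and CACNA1F in alcohol against control, so it could not have called these genes. With a replicate block, 0 channel genes were called in alcohol against control, co-treated against alcohol and co-treated against control. Over all genes the block moved the calls from 10 to 48, from 2 to 5 and from 54 to 136. The deviations from the group means had a correlation of 0.114 between control and alcohol. It was -0.016 between control and co-treated and 0.041 between alcohol and co-treated. Counting error also lowers such a correlation, so it cannot decide whether the replicate numbers pair the samples. Over all genes DESeq2 called 68, 5 and 113, and limma on log2(FPKM + 1) 3, 2 and 3. Without a filter on low counts edgeR called 2, 1 and 15; with at least 10 counts in every library it called 26, 0 and 78; on the compared groups alone it called 3, 4 and 158. Leaving out 1 library gave 1 to 220, 1 to 24 and 2 to 184.

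The median log2 fold change over the channel genes tested, 0.17 for alcohol against control, was 0.042 with limma on log2(FPKM + 1), 0.086 with a pseudocount of 0.1, 0.028 with limma and no filter, 0.022 with at least 10 counts in every library, and 0.044 to 0.17 without 1 library. For co-treated against alcohol it was -0.094 with DESeq2, -0.047 with limma at a pseudocount of 1 and -0.046 at 0.1, -0.028 with limma and no filter, -0.10 with no filter on low counts, and -0.14 to -0.026 without 1 library. For co-treated against control it was 0.15 with limma at a pseudocount of 0.1, 0.034 with limma and no filter, 0.018 with at least 10 counts, and -0.024 to 0.091 without 1 library. The cause of these shifts was not tested, except that the filters change which genes enter.

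The shares of genes that led by FPKM were also taken by CPM. They were 93.2% for HCN4, 67.0% for CACNB2, 32.7% for CACNG6 and 77.8% for CACNA1C. Among the gamma genes the lead changed, since CACNG6 held 69.3% by FPKM while CACNG8 held 65.6% by CPM. Without 1 library the share of HCN4 by FPKM was 92.3% to 92.8%. Leaving out 1 library also turned the sign of small log2 fold changes. That of HCN4 for alcohol against control ranged from -0.19 to 0.035. That of CACNA1C for co-treated against control ranged from -0.0014 to 0.16. CACNA1F could not be fitted with at least 10 counts in every library. At these totals and with 2 libraries per group, genes with counts near the floor give no usable difference.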

Other observations

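The effective transcript model of a few channel genes differed between libraries, which enters their FPKM but not their expected counts. The mean transcript length of CACNG6 ranged from 1522 to 1886 bases and that of HCN3 from 3275 to 3891 bases, whereas HCN4, with 1 transcript, kept 7245 bases in every library.

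Genes whose exons overlap channel exons on the opposite strand ranged from near 0 upwards, and reads in the shared bases cannot be assigned to a strand here. TPSG1, over CACNA1H, had at most 2 counts and PKLR, over HCN3, at most 5. CACNA1C-AS1 was at 3.39 to 5.86 FPKM and shares 564 exonic bases with CACNA1C, and CHDH, at 1.92 to 3.28 FPKM, shares 1399 exonic bases with CACNA1D. CYB561D2, at 4.08 to 8.53 FPKM on up to 52 counts, shares 606 exonic bases with CACNA2D2, which had 60 to 169 counts.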
